A study of Bos taurus with 15 samples.

Results

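THBS1 and 9 genes of the Hippo pathway or among its targets were followed in bovine blastocysts that had been cultured with or without oviductal extracellular vesicles (oEVs), the membrane-bound particles that the oviduct releases into its fluid. The genes were chosen by symbol, and each is 1 row of the filtered read count table, so that the 10 genes stand among 10832 that were tested. They are the secreted thrombospondin 1 (THBS1, gene 281530), the CCN proteins CCN1 (gene 508941) and CCN2 (gene 281103), the angiomotins AMOTL2 (gene 538514) and AMOT (gene 535509), the co-activators YAP1 (gene 100336629) and WWTR1 (gene 614786), the transcription factors TEAD1 (gene 536560) and TEAD4 (gene 526771), and the kinase LATS2 (gene 508208). All 10 had passed the filter on low counts.

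The embryos were produced by in vitro fertilization and were cultured without oEVs (Co), with fresh oEVs (FeEV) or with oEVs that had been frozen (FoEV). The vesicles came from the oviductal fluid of slaughterhouse cows that were judged from their ovaries to be in the postovulatory stage. The study states that fresh and frozen oEVs came from the same oviducts and differed only by freezing and thawing. The labels do not say which FeEV and FoEV pools shared a vesicle preparation. Each of the 15 libraries, 5 per treatment, was made from 1 ng of total RNA of a pool of 8 to 14 blastocysts, and the labels place the embryos at day 7. The pools with the best RNA had been picked for sequencing, each value is an average over several embryos, and no other embryo stage was measured.

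The Hippo pathway is a kinase cascade that reads cell contact and polarity. The MST kinases activate the LATS kinases, and LATS phosphorylates YAP and TAZ (the product of WWTR1), which then bind 14-3-3 proteins and stay in the cytoplasm. Without that phosphorylation YAP and TAZ enter the nucleus and act with TEAD factors, which bind DNA. In mammalian embryos this switch separates the outer, polarized cells, which become trophectoderm, from the inner cells, where angiomotins help to keep the pathway on. CCN1, CCN2 and AMOTL2 are widely used readouts of YAP activity, and THBS1 is a matricellular protein that is also transcribed under YAP and TEAD control in several cell types. The counts measure mRNA, whereas the pathway works largely through phosphorylation and localization, which were not measured.

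The libraries held 2136713 to 4058887 counts, and every FoEV library had more counts than every Co library. Ribosomal RNA genes took 15.5% to 28.2% of the counts. Libraries of the same treatment differed by more than sampling noise in all 30 pairs, with chi-square values per gene between 3.73 and 30.1. Nothing in the labels says that the pools came from separate culture runs, so the p-values measure the spread between these pools. The trophectoderm markers KRT8 and KRT18 were at 3610 to 6000 and at 2250 to 4590 CPM (counts per 1000000 of the TMM-scaled library total) in the 15 libraries. SOX2, NANOG and POU5F1, listed as inner cell mass markers, were detected in each. Whether POU5F1 was confined to the inner cell mass at this stage was not tested. Among markers of cells that could have been carried along, PTX3 of the cumulus had 1 count in all 15 libraries together and OVGP1 of the oviduct epithelium 0 to 6 counts per library. Other such markers were higher, with CYP19A1 of the granulosa at 36 to 140 counts per library and COL1A2 of stromal fibroblasts at 104 to 330. In the cumulus and granulosa, stromal fibroblast and oviduct epithelium lists 3 genes each passed the filter on low counts.

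None of the 10 genes passed the adjusted threshold of 0.05 in any of the 3 comparisons between treatments (edgeR quasi-likelihood test, Benjamini-Hochberg adjustment over all genes). In FoEV vs. Co, 3 of the 10 (THBS1, CCN1 and AMOTL2) had an unadjusted p under 0.05, all with lower values in FoEV, where 15.1% of all genes had such a p and 6.88% had it with lower values. In FeEV vs. Co, 2 of the 10 (THBS1 and CCN1) did so, both lower in FeEV, against 4.15% of all genes and 2.32% with lower values. In FoEV vs. FeEV the count was 0 of the 10, against 8.52% of all genes, and 3.69% with lower values. The adjusted threshold was passed by 0.00923%, 0.0% and 0.0% of all genes in the 3 comparisons. With the likelihood ratio test 2, 0 and 0 of the 10 passed it, against 2.87%, 0.0554% and 0.286% of all genes. With the Wald test of DESeq2 none of the 10 did, against 1.27%, 0.00923% and 0.0277% of all genes. The comparisons of FoEV and of FeEV with Co share the 5 Co libraries.

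**Figure D1:**
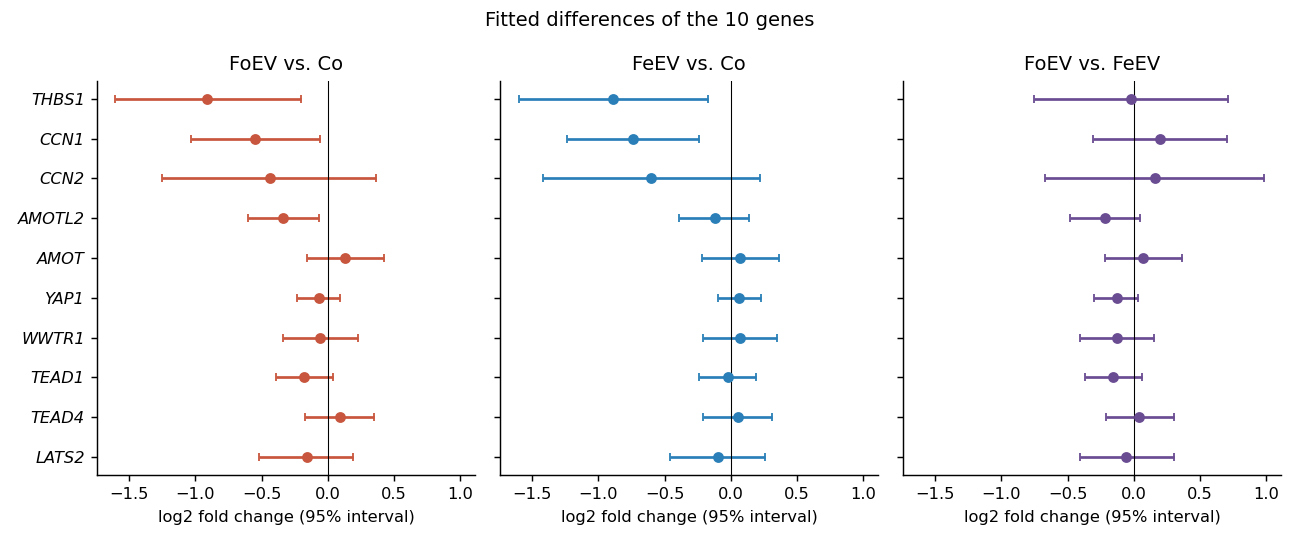
Fitted log2 fold changes (x axis) of the 10 genes (y axis) in the 3 comparisons, with points for the edgeR estimate and bars for its 95% interval. The intervals of THBS1 and CCN1 lie below 0 in both comparisons with Co, that of AMOTL2 only in FoEV vs. Co, and all 10 intervals include 0 in FoEV vs. FeEV.

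THBS1, an extracellular glycoprotein that binds integrins and CD47 and can activate latent TGF-beta, was at 16.4, 27.0, 40.0, 30.1 and 37.8 CPM in Co replicates 1 to 5. In FeEV replicates 1 to 5 it was at 26.8, 7.80, 18.1, 18.7 and 10.1 CPM. In FoEV replicates 1 to 5 it was at 26.6, 16.9, 8.54, 14.7 and 13.1 CPM. All 10 oEV libraries lay below the Co median, 2 FeEV and 3 FoEV libraries lay below every Co library, and the treatments overlapped only at Co replicate 1, the lowest Co library, which lay below 3 FeEV and 2 FoEV libraries. The mean level was 30.2 CPM ± 9.4 (SD, n = 5) in Co, 16.3 ± 7.6 under FeEV and 16.0 ± 6.7 under FoEV, on 21 to 124 counts per library.

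For THBS1 the log2 fold change was -0.91 in FoEV vs. Co (standard error 0.33, 95% interval -1.61 to -0.20, edgeR unadjusted p = 0.0147, adjusted p = 0.219). Against Co, the FeEV value was -0.89 (standard error 0.34, 95% interval -1.60 to -0.17, edgeR unadjusted p = 0.0183, adjusted p = 1.0). FeEV and FoEV, neighbours in the order of the levels, differed by -0.02 with a 95% interval of -0.75 to 0.71, so that a difference of either sign smaller than that could not be seen. By size, 0.148% of all genes had a lower log2 fold change than THBS1 in FoEV vs. Co and 0.277% in FeEV vs. Co. By p, 6.69% and 1.41% of all genes came before it. When all libraries were thinned to the same total, the FoEV vs. Co value was -0.81 (edgeR adjusted p = 0.293). With the likelihood ratio test on a robust dispersion, the test that the study's methods name, it was -1.04 with an adjusted p of 0.0196, the lowest of the 10 alternative settings, whose highest was 0.298.

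CCN1 (also called CYR61), a secreted matrix protein that signals through integrins, was at 82.0, 50.9, 83.2, 46.6 and 53.8 CPM in Co replicates 1 to 5. In FeEV it was at 54.5, 33.8, 36.3, 29.6 and 34.4 CPM and in FoEV at 70.4, 33.3, 33.3, 38.7 and 40.6 CPM. Replicates 2 to 5 of FeEV and of FoEV all lay below the lowest Co library, and replicate 1 of either treatment lay inside the Co range. The means and SD of 5 were 63.3 ± 17.8 CPM in Co, 37.7 ± 9.72 under FeEV and 43.3 ± 15.5 under FoEV, on 65 to 304 counts per library.

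The log2 fold change of CCN1 was -0.55 in FoEV vs. Co (standard error 0.23, 95% interval -1.03 to -0.06, edgeR unadjusted p = 0.0311, adjusted p = 0.277). The FeEV vs. Co value was -0.74 (standard error 0.24, 95% interval -1.24 to -0.24, edgeR unadjusted p = 0.00638, adjusted p = 1.0), and 0.425% of all genes had a lower p. Between FoEV and FeEV it was 0.20, with a 95% interval of -0.31 to 0.70. The FoEV vs. Co value stayed negative without any 1 library, whereas its unadjusted p depended on the library left out. Without FoEV replicate 1 the value was -0.80 (edgeR unadjusted p = 0.000475, adjusted p = 0.148) and without Co replicate 3 it was -0.43 (unadjusted p = 0.0923). The unadjusted p was also over 0.05 without Co replicate 1 or any one of FoEV replicates 2 to 5, between 0.0582 and 0.0885.

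CCN2 (also called CTGF), the closest relative of CCN1 among these genes and a classical YAP target, was at 58.3, 52.0, 67.7, 40.5 and 55.8 CPM in Co. In FeEV it was at 71.8, 29.0, 38.2, 29.1 and 12.3 CPM and in FoEV at 69.5, 33.0, 27.0, 41.4 and 30.3 CPM. Replicate 1 of FeEV and of FoEV lay above every Co library, whereas 4 FeEV and 3 FoEV libraries lay below every Co library. Each oEV mean lay within 1 SD of its own libraries from the Co mean, with 54.9 ± 9.90 CPM (SD, n = 5) in Co, 36.1 ± 22.1 under FeEV and 40.2 ± 17.2 under FoEV, and the counts ran from 44 to 300.

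The log2 fold change of CCN2 was -0.44 in FoEV vs. Co (standard error 0.37, 95% interval -1.25 to 0.36, edgeR unadjusted p = 0.255, adjusted p = 0.603) and -0.60 in FeEV vs. Co (standard error 0.38, 95% interval -1.42 to 0.22, edgeR unadjusted p = 0.139, adjusted p = 1.0). Without FoEV replicate 1 the first value was -0.74 (edgeR unadjusted p = 0.0584, adjusted p = 0.407), and without FeEV replicate 1 the second was -1.03 (unadjusted p = 0.00638, adjusted p = 0.999). Without FeEV replicate 5 the second was -0.37. FoEV replicate 1 had the most counts of all libraries, 4058887. FeEV replicate 1 and FoEV replicate 1 had the lowest ribosomal RNA share of their treatments, 16.3% and 15.9%, and Co replicate 2, with 15.5%, had the lowest of all. With counts thinned to equal depth CCN2 was at -0.47 in FoEV vs. Co and -0.45 in FeEV vs. Co. Without ribosomal RNA genes it was at -0.45 and -0.61. The part of depth and of the ribosomal share in the values of these single libraries was not tested.

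AMOTL2, an angiomotin at cell junctions that retains YAP and is itself a YAP target, was at 76.9, 57.7, 74.5, 69.0 and 63.6 CPM in Co. In FeEV it was at 64.4, 53.1, 83.5, 54.7 and 57.8 CPM and in FoEV at 65.3, 53.7, 51.2, 47.1 and 52.3 CPM. FoEV replicates 2 to 5 lay below every Co library, whereas FeEV held the highest library of all. The means and SD of 5 were 68.4 ± 7.87 CPM in Co, 62.7 ± 12.4 under FeEV and 53.9 ± 6.82 under FoEV.

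For AMOTL2 the log2 fold change was -0.34 in FoEV vs. Co (standard error 0.13, 95% interval -0.60 to -0.07, edgeR unadjusted p = 0.0142, adjusted p = 0.216), and its unadjusted p was 0.0532 with the library number as a block. It was -0.12 in FeEV vs. Co (95% interval -0.39 to 0.14) and -0.22 in FoEV vs. FeEV (95% interval -0.48 to 0.05, edgeR adjusted p = 0.628). The order Co, FeEV, FoEV thus held in the means, and neither neighbouring pair differed beyond its spread.

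**Figure D2:**
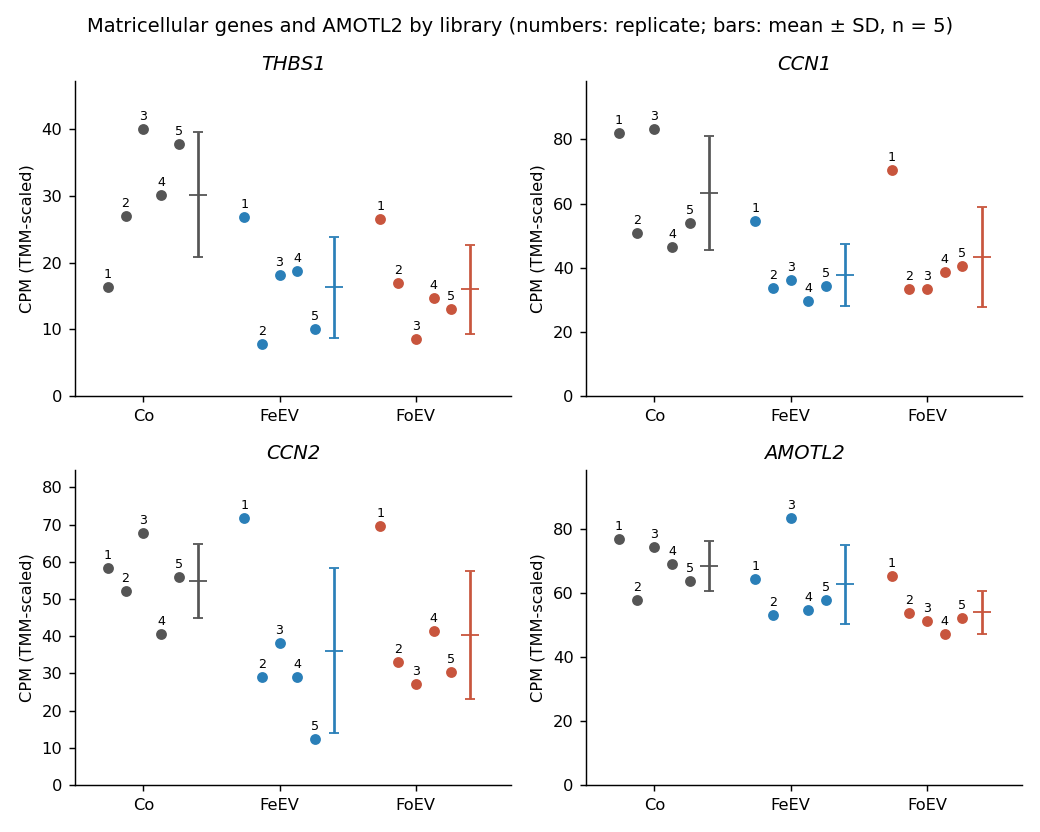
CPM, scaled by TMM (y axes), of THBS1, CCN1, CCN2 and AMOTL2 in each library, by treatment (x axes). Points are libraries with their replicate number, and bars give the mean ± SD of 5. Replicate 1 of FeEV and of FoEV is the highest of its treatment for THBS1, CCN1 and CCN2, and Co replicate 1 is the lowest Co library for THBS1 but not for CCN1.

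Since FeEV and FoEV lay on the same side of Co for these genes, their mean was also set against Co in the same fit, a contrast added after the separate ones had been seen. The log2 fold change was -0.90 for THBS1 (standard error 0.28, edgeR unadjusted p = 0.00595, adjusted p = 0.377) and -0.64 for CCN1 (standard error 0.20, edgeR unadjusted p = 0.00511, adjusted p = 0.377). For CCN1, 8 of the 10 oEV libraries lay below every Co library. For AMOTL2 the value was -0.23 (edgeR unadjusted p = 0.0484, adjusted p = 0.51) and for CCN2 -0.52 (edgeR unadjusted p = 0.128, adjusted p = 0.63). Again 3 of the 10 genes had an unadjusted p under 0.05, against 9.75% of all genes and 4.73% with lower values, and none passed after adjustment. The AMOTL2 value was close to that limit, with an unadjusted p of 0.05 or more in 11 of the 15 fits that left out 1 library (0.0073 to 0.137) and of 0.135 with the block by library number. THBS1 passed the adjusted threshold in this contrast under 1 other setting, the likelihood ratio test (-1.01, adjusted p = 0.0137), and its highest adjusted p over the settings was 0.399, with none given by DESeq2. CCN1 passed under 3 other settings, with an adjusted p of 0.00554 without the filter on low counts, 0.0111 with the likelihood ratio test and 0.0477 with the replicate number of the titles as a block, and its highest adjusted p over the settings was 0.397. In this contrast these 3 settings called 36 of 25470, 46 of 10832 and 2 of 10832 genes. Of the 10 log2 fold changes 7 were negative, against 48.4% of all genes.

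The genes upstream of these readouts lay closer together. AMOT, the angiomotin best known for keeping YAP out of the nucleus of inner cells, was at 286, 174, 309, 221 and 256 CPM in Co, at 212, 293, 308, 236 and 259 in FeEV and at 339, 252, 240, 278 and 258 in FoEV. The ranges overlapped throughout, and the log2 fold change was 0.13 in FoEV vs. Co (95% interval -0.16 to 0.42) and 0.07 in FeEV vs. Co (95% interval -0.22 to 0.36). LATS2, the kinase that phosphorylates YAP and TAZ and a YAP target itself, was low in all libraries, with 30 to 76 counts. Its level was 13.1 to 20.1 CPM in Co, 12.3 to 19.6 in FeEV and 11.6 to 17.6 in FoEV. The log2 fold change was -0.16 in FoEV vs. Co (95% interval -0.52 to 0.19) and -0.10 in FeEV vs. Co (95% interval -0.46 to 0.26).

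YAP1 was the steadiest of the 10 genes. It was at 357, 395, 379, 396 and 373 CPM in Co, at 417, 407, 381, 401 and 378 in FeEV and at 334, 403, 361, 388 and 321 in FoEV. The highest library was 1.30 times the lowest, and the SD of log2 CPM within treatments was 0.09, with 1.26% of all genes having a smaller one. The log2 fold change was -0.07 in FoEV vs. Co (95% interval -0.23 to 0.09), 0.06 in FeEV vs. Co (95% interval -0.10 to 0.23) and -0.13 in FoEV vs. FeEV (95% interval -0.30 to 0.03, edgeR unadjusted p = 0.102). WWTR1, which encodes TAZ, was at 94.8 to 139 CPM in Co, 86.3 to 141 in FeEV and 84.8 to 123 in FoEV, with log2 fold changes of -0.06 (95% interval -0.34 to 0.23) and 0.07 (95% interval -0.21 to 0.35) against Co.

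TEAD1, a widely expressed partner of YAP, was at 229, 232, 205, 216 and 201 CPM in Co, at 177, 254, 188, 215 and 232 in FeEV and at 166, 169, 205, 203 and 214 in FoEV. All 5 FoEV libraries lay below the Co median, 2 of them below every Co library. Its log2 fold change was -0.18 in FoEV vs. Co (95% interval -0.39 to 0.04, edgeR unadjusted p = 0.0982, adjusted p = 0.42) and -0.02 in FeEV vs. Co (95% interval -0.24 to 0.19). TEAD4, which trophectoderm formation needs in the mouse, was at 111, 72.9, 69.7, 88.3 and 78.4 CPM in Co, at 79.9, 103, 75.1, 85.2 and 90.5 in FeEV and at 82.2, 82.7, 95.1, 106 and 81.2 in FoEV. The Co range covered both other treatments, and the log2 fold changes were 0.09 (95% interval -0.17 to 0.35) and 0.05 (95% interval -0.21 to 0.31) against Co.

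**Figure D3:**
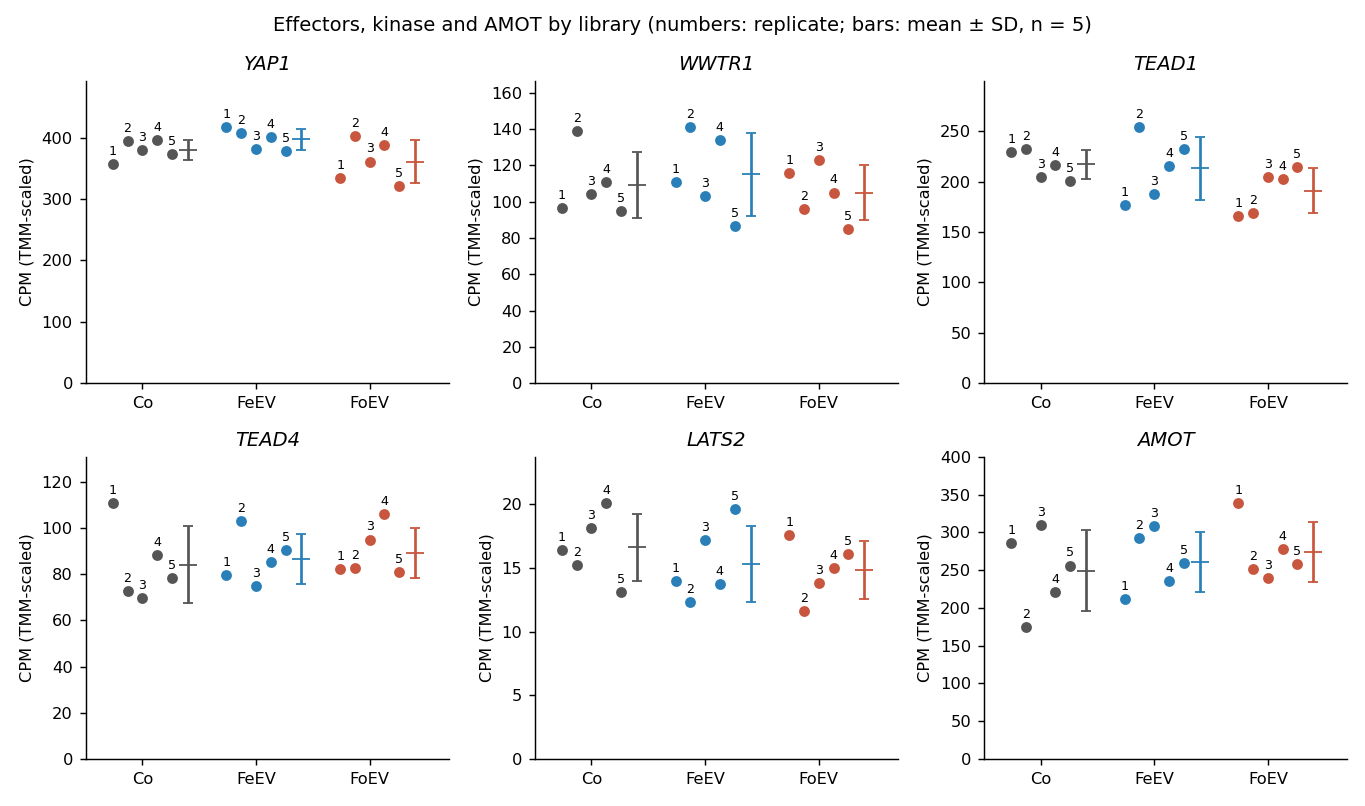
CPM, scaled by TMM (y axes), of the upstream and nuclear genes AMOT, LATS2, YAP1, WWTR1, TEAD1 and TEAD4 in each library, by treatment (x axes). Points are libraries with their replicate number, and bars give the mean ± SD of 5. The 3 treatments overlap in every panel, and the YAP1 libraries stay between 321 and 417 CPM.

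No gene of the 10 separated 2 treatments without overlap, where 2.6% of all genes did so in FoEV vs. Co, 0.951% in FeEV vs. Co and 1.5% in FoEV vs. FeEV. Of the 10 log2 fold changes, 8 were negative in FoEV vs. Co, 6 in FeEV vs. Co and 6 in FoEV vs. FeEV, against 47.7%, 49.0% and 48.2% of all genes. The median of the 10 was -0.17, -0.06 and -0.04, and that of all genes 0.01, 0.00 and 0.01.

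The secreted genes varied more between pools of 1 treatment than the others. The SD of log2 CPM within treatments was 0.59 for THBS1, 0.39 for CCN1 and 0.62 for CCN2, and from 0.09 to 0.25 for the other 7 genes, with a median of 0.25 over all genes. Among the 1000 genes nearest in mean level, 98.1%, 96.4% and 98.9% had a smaller SD than THBS1, CCN1 and CCN2. From the lowest to the highest of the 15 libraries the level differed 5.13-fold for THBS1, 2.81-fold for CCN1 and 5.84-fold for CCN2.

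Whether these deviations went together was examined in pairs of genes. After the mean of each treatment had been removed, the 45 pairs among the 10 genes had correlations across the 15 libraries between -0.85 and 0.70, with a median of 0.03. By permutation within treatments 9 pairs had p under 0.05, and 1 passed after Benjamini-Hochberg adjustment over the 45. CCN1 and CCN2 had r = 0.70 (permutation p = 0.00312, adjusted p = 0.0702) and Spearman's rho = 0.75 (permutation p = 0.00218). Without FeEV replicate 1 and FoEV replicate 1, the libraries farthest out for CCN1, r was 0.39, so that this relation rested largely on those pools. THBS1 and CCN2 had r = 0.67 (permutation p = 0.0171, adjusted p = 0.18) and rho = 0.66 (permutation p = 0.0171). That r was 0.86 without Co replicate 1 and FeEV replicate 2, the farthest out for THBS1. THBS1 and CCN1 had r = 0.40 (permutation p = 0.157, adjusted p = 0.418). No pair among these secreted genes passed the adjustment.

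The pair that passed the adjustment was of opposite sign. THBS1 and TEAD1 had r = -0.85 (permutation p = 0.00029, adjusted p = 0.013) and rho = -0.86 (permutation p = 0.00019), and r was -0.83 without Co replicate 1 and FeEV replicate 2. The libraries with more THBS1 than the mean of their treatment had less TEAD1, in all 3 treatments and with FeEV replicate 4 as the exception. Across the 15 libraries with the treatment means left in, r was -0.39. THBS1 and TEAD4 had r = -0.70 (permutation p = 0.00614, adjusted p = 0.0921) and rho = -0.61 (permutation p = 0.0264), and r was -0.49 without the same libraries. CCN2 and TEAD1 had r = -0.66 (permutation p = 0.0372, adjusted p = 0.186), rho = -0.65 (permutation p = 0.0278) and r = -0.55 without FeEV replicates 1 and 5.

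**Figure D4:**
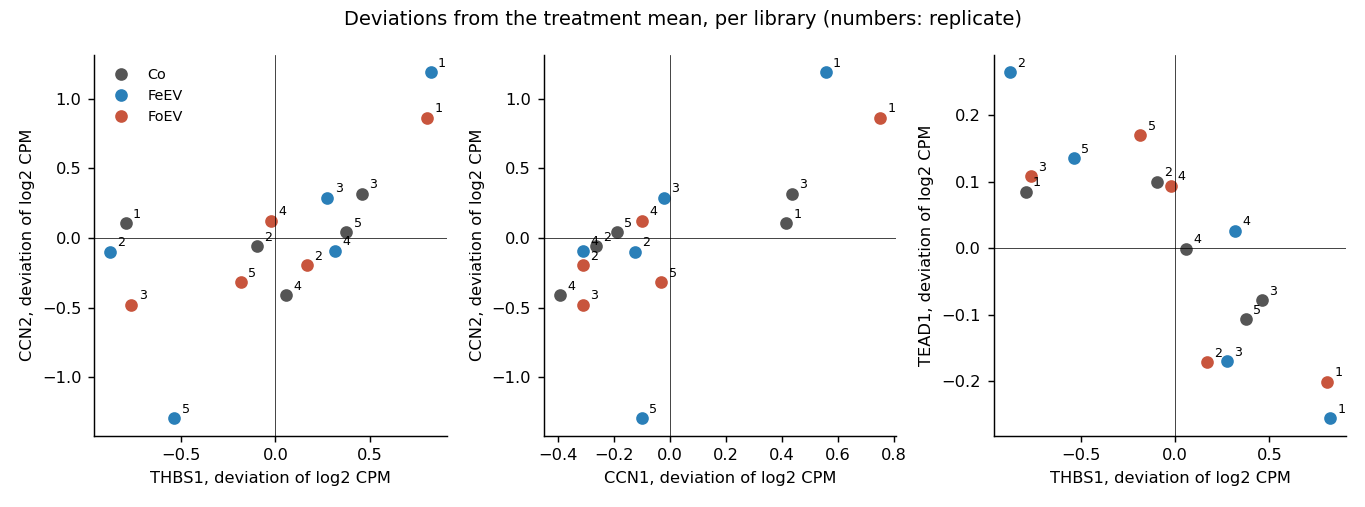
Deviation of log2 CPM from the treatment mean in each library for THBS1 against CCN2, CCN1 against CCN2 and THBS1 against TEAD1 (x and y axes, log2 units), with points coloured by treatment and numbered by replicate. FeEV and FoEV replicate 1 are at the upper right for both secreted pairs, and the THBS1 and TEAD1 points run from the upper left to the lower right with r = -0.85.

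Over the 15 libraries with nothing removed, the genes whose log2 CPM was most like that of THBS1 were SCRN1 (r = 0.83), C7H5orf43 (0.81), MBNL1 (0.81), NECTIN3 (0.80) and SFXN1 (0.79). CCN2 ranked 17 among all genes by this measure (r = 0.75), CCN1 ranked 132 (r = 0.65) and AMOTL2 ranked 453 (r = 0.54), while TEAD4 ranked 10723 (r = -0.65). Genes much like CCN1 by the same measure included USP3 (r = 0.84), GYG1 (0.81), TOB1 (0.81) and CCN2 (0.79). These correlations share the libraries and their depth and are given as a description.

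Among the other thrombospondins and CCN genes, THBS1, CCN1 and CCN2 were the 3 of 11 that passed the filter. THBS2, THBS3, THBS4, COMP and CCN3 to CCN6 had 0 to 40 counts per library, with CCN3 at 2 to 40 and CCN4 and CCN5 at 0 in 12 of the 15 libraries. Of 14 receptors and partners of these proteins, 13 passed the filter. In FoEV vs. Co, 2 of the 13 were higher and 1 was lower at an unadjusted p under 0.05, none passed after adjustment, and their median log2 fold change was 0.03, where 15.1% of all genes had such a p. The higher ones were the integrin subunits ITGA3, at 63.4 ± 7.62 against 48.6 ± 4.24 CPM (log2 fold change 0.39, edgeR adjusted p = 0.177), and ITGA5, at 426 ± 25.7 against 369 ± 20.1 CPM (0.21, edgeR adjusted p = 0.193). The lower one was ITGAV, at 103 ± 20.8 against 130 ± 7.48 CPM (-0.33, edgeR adjusted p = 0.214). CD47, a receptor of THBS1, was at 21.2 ± 2.26 against 26.3 ± 6.80 CPM (-0.31, edgeR unadjusted p = 0.0989). None of the 13 had an unadjusted p under 0.05 in FeEV vs. Co, against 4.15% of all genes. In FoEV vs. FeEV only the Wnt co-receptor LRP6 had one (-0.28, edgeR adjusted p = 0.538), against 8.52% of all genes.

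A published 22-gene signature of YAP and TAZ targets, which holds CCN1, CCN2, AMOTL2 and LATS2, had 16 genes over the filter. In FoEV vs. Co, 11 of the 16 had lower values, 2 of them (CCN1 and AMOTL2) at an unadjusted p under 0.05, and the median log2 fold change was -0.11, where 47.7% of all genes had lower values and 6.88% had them at such a p. In FeEV vs. Co, 13 of the 16 had lower values, 2 of them (CCN1 and IGFBP3) at such a p, with a median of -0.11, against 49.0% and 2.32% of all genes. IGFBP3, a carrier of insulin-like growth factors, was at 37.0 ± 3.81 against 45.3 ± 7.82 CPM in FeEV vs. Co (-0.29, edgeR adjusted p = 1.0). ASAP1 was the 1 gene of the 16 with such a p in FoEV vs. FeEV (0.20, edgeR adjusted p = 0.578), against 8.52% of all genes. Other members lay near 0, such as MYOF, a membrane repair protein, at 420 ± 32.4, 425 ± 35.5 and 414 ± 31.5 CPM in FoEV, FeEV and Co. ANKRD1, a further classical target, was at 9.76 ± 5.06, 7.39 ± 3.75 and 9.19 ± 4.43 CPM, with a standard error of 0.40 on its log2 fold change of 0.08 in FoEV vs. Co. AXL, FJX1, FOXF2, CCDC80, NT5E and RBMS3 had 0 to 16 counts per library and were not tested.

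In the kinase cassette, the list of Hippo kinases with their activators and scaffolds, 15 of 15 genes were tested and 11 had lower values in FoEV than in Co. For 5 of them the unadjusted p was under 0.05, none passed after adjustment, and the median log2 fold change was -0.17. Of all genes 47.7% had lower values and 6.88% had them at such a p. WWC2, of the KIBRA family of scaffolds, was at 132 ± 6.85 against 161 ± 14.6 CPM (-0.29, edgeR unadjusted p = 0.00199, adjusted p = 0.135). MOB1A, an activator that binds LATS, was at 80.2 ± 11.8 against 101 ± 8.43 CPM (-0.34, edgeR unadjusted p = 0.00293, adjusted p = 0.145), and its paralog MOB1B was at 35.3 ± 8.46 against 45.1 ± 4.56 CPM (-0.35, edgeR adjusted p = 0.278). TAOK1, a kinase upstream of MST, was at 234 ± 38.2 against 289 ± 15.1 CPM (-0.30, edgeR adjusted p = 0.159). MAP4K4, which can phosphorylate LATS, completed the 5 with -0.27 (edgeR adjusted p = 0.279).

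The MST kinases themselves lay on either side of 0 in FoEV vs. Co, STK3 at -0.09 (edgeR unadjusted p = 0.504) and STK4 at 0.23 (edgeR unadjusted p = 0.148), and LATS1 was at -0.17 (edgeR unadjusted p = 0.138). In FeEV vs. Co, 11 of the 15 again had lower values, 2 of them at an unadjusted p under 0.05 (MAP4K4 at -0.32, 48.9 ± 6.83 against 61.0 ± 8.64 CPM, and MOB1A at -0.30, 82.5 ± 4.52 against 101 ± 8.43 CPM), against 2.32% of all genes, and the median was -0.07. The 10 genes of STRIPAK, the phosphatase complex that opposes MST, had a median of -0.07 in FoEV vs. Co and -0.02 in FeEV vs. Co with no unadjusted p under 0.05. Such a p was held by 15.1% and 4.15% of all genes. STRN3, a striatin subunit of the complex, was at -0.26 in FoEV vs. FeEV (edgeR unadjusted p = 0.04, adjusted p = 0.564), where 8.52% of all genes had an unadjusted p under 0.05. The striatins STRN and STRN4 were at -0.08 and 0.19.

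Among 19 angiomotins, junction and polarity genes, 1 was higher and 2 were lower in FoEV vs. Co at an unadjusted p under 0.05, close to the 15.1% of all genes with such a p, and their median was 0.01. The higher gene was LLGL2, a basolateral polarity protein, at 64.9 ± 11.1 against 50.1 ± 5.28 CPM (0.37, edgeR adjusted p = 0.174). The lower ones were AMOTL2 and PALS1, a scaffold of the apical Crumbs complex, at 207 ± 33.9 against 244 ± 23.9 CPM (-0.23, edgeR adjusted p = 0.309). CDH1, the cadherin of the adherens junction, was at 924 ± 52.7 against 1000 ± 49.5 CPM (-0.12, edgeR adjusted p = 0.466). Of the 7 genes for 14-3-3 proteins, YWHAH was at 189 ± 17.1 against 147 ± 15.0 CPM (0.36, edgeR unadjusted p = 0.000542, adjusted p = 0.0948), and the median was 0.02.

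Of the 9 nuclear effectors, TEAD3 was at 124 ± 16.1 in FoEV against 105 ± 9.45 CPM in Co (0.24, edgeR unadjusted p = 0.0244, adjusted p = 0.256). VGLL3, a cofactor that competes with YAP for TEAD, was at 7.43 ± 2.57 against 10.9 ± 2.46 CPM (-0.57, edgeR unadjusted p = 0.0337, adjusted p = 0.286). VGLL1, of the same family, was at 9.31 ± 1.56 in FoEV against 13.0 ± 3.95 CPM in FeEV (-0.48, edgeR adjusted p = 0.563). None of the 9 had an unadjusted p under 0.05 in FeEV vs. Co, against 4.15% of all genes. Such a p was held by 15.1% of all genes in FoEV vs. Co and by 8.52% in FoEV vs. FeEV.

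**Figure D5:**
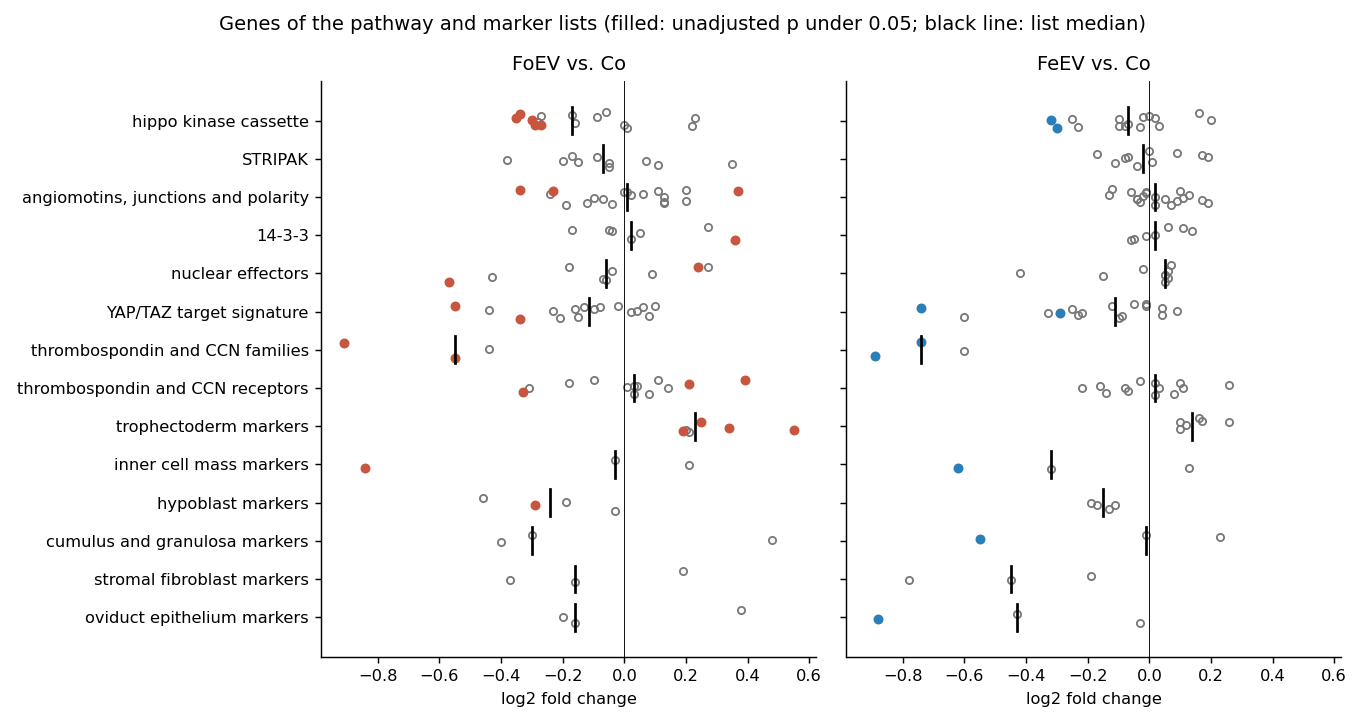
Log2 fold changes (x axes) of the genes of each pathway and marker list (y axis) in FoEV vs. Co and FeEV vs. Co, 1 point per gene tested, filled where the edgeR unadjusted p is under 0.05, with a black line at the list's median. No point passes the adjusted threshold. The kinase cassette has its median at -0.17 and the trophectoderm markers theirs at 0.23 in FoEV vs. Co.

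Markers of the embryo's cell lineages were set beside these values, since a level in a pool can be lower through fewer cells of a type or less RNA per cell, which cannot be told apart here. All 6 trophectoderm markers had higher values in FoEV than in Co, 4 of them at an unadjusted p under 0.05 and none after adjustment, with a median log2 fold change of 0.23, where 15.1% of all genes had such a p. KRT18, a keratin, was at 3930 ± 520 against 2680 ± 404 CPM (0.55, edgeR unadjusted p = 0.000347, adjusted p = 0.0818). The transcription factor GATA3 was at 0.19 (edgeR adjusted p = 0.238), GATA2 at 0.34 (edgeR adjusted p = 0.276) and KRT8 at 0.25 (edgeR adjusted p = 0.289). The summed level of the 6 was 6350 to 8600 CPM in Co, 6940 to 10400 in FeEV and 8270 to 11200 in FoEV.

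The 6 trophectoderm markers were again all higher in FeEV vs. Co, none at an unadjusted p under 0.05, with a median of 0.14, where 4.15% of all genes had such a p. Of the 3 inner cell mass markers, NANOG was at 45.0 ± 16.7 in FoEV against 80.4 ± 19.9 CPM in Co (-0.84, edgeR unadjusted p = 0.00641, adjusted p = 0.178). In FeEV it was at 52.1 ± 13.2 CPM (-0.62 against Co, edgeR unadjusted p = 0.0342, adjusted p = 1.0). SOX2 and POU5F1 were at 31.9 ± 12.4 and 194 ± 30.3 CPM in FoEV and at 32.4 ± 9.50 and 168 ± 8.42 CPM in Co. The log2 fold change of POU5F1 in FoEV vs. Co was 0.21, opposite in sign to that of NANOG, and that of SOX2 was -0.03. POU5F1 made up the largest part of the sum of the 3, with a mean of 168 CPM in Co where the sum had a mean of 281. That sum ran over 233 to 306 CPM in Co, 232 to 292 in FeEV and 219 to 338 in FoEV. The 4 hypoblast markers over the filter were all lower in FoEV (median -0.24), FN1, a matrix protein, at an unadjusted p of 0.0496 (-0.29, edgeR adjusted p = 0.331), and all lower in FeEV (median -0.15). With SOX17, which was at 2 to 14 counts per library and below the filter, they summed to 6410 to 8880, 5610 to 7920 and 4710 to 7360 CPM in Co, FeEV and FoEV.

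The sums of the cumulus, stromal and oviduct lists were lower, but the highest stromal sum, 199 CPM, came near the lowest inner cell mass sum, 219 CPM. These sums are not divided by transcript length, and single genes can make up most of a sum. In Co, FN1 had a mean of 6800 CPM where the hypoblast sum had a mean of 7550. KRT8 and KRT18 had means of 4270 and 2680 CPM where the trophectoderm sum had a mean of 7460. The 9 cumulus and granulosa markers summed to 30.4 to 46.4 CPM in Co, 31.6 to 50.9 in FeEV and 32.2 to 51.4 in FoEV, with PTX3 at 0 in all Co and FoEV libraries. The 6 stromal fibroblast markers summed to 72.2 to 199, 53.1 to 124 and 64.9 to 112 CPM, and the 6 oviduct epithelium markers to 21.3 to 45.9, 19.8 to 26.7 and 21.8 to 41.4 CPM. Of each of these lists 3 genes passed the filter. Among these, FSHR (-0.55, edgeR adjusted p = 1.0) and MUC16 (-0.88, edgeR adjusted p = 1.0) had an unadjusted p under 0.05 in FeEV vs. Co. Such a p was held by 4.15% of all genes there. COL1A1 had one in FoEV vs. FeEV (0.98, edgeR adjusted p = 0.523), against 8.52% of all genes. None had one in FoEV vs. Co, against 15.1% of all genes. The part of cell composition in the values of THBS1, CCN1 and AMOTL2 was not tested.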

How the data were processed

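Low-input total RNA of 15 pools of bovine blastocysts was sequenced. The deposited tables hold the authors' whole-number read counts per gene, without normalization, for 34773 genes and for the 10832 genes they kept, with the same counts in both. The study's methods name QuasR Qcount with ARS-UCD1.2 and the NCBI annotation, and the submitters' processing notes name Trim Galore 0.4.3.1, HISAT2 2.1.0 and featureCounts 1.6.3. Libraries were strand-selected, but whether counting used strand is not given in the sources used here. The labels give day 7 and the methods 8 days of culture. In a later annotation (ARS-UCD2.0) THBS1 overlaps FSIP1 (34 counts in all) and TEAD1 overlaps MIR2314 (10 counts).

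The kept counts were scaled by TMM and fitted in edgeR 4.0.16 (R 4.3.3) with treatment as the factor over all 15 libraries (glmQLFit with robust = TRUE, 12 residual degrees of freedom). The 3 contrasts were tested with the quasi-likelihood F test, with Benjamini-Hochberg adjustment over the 10832 genes. Levels are CPM on TMM-scaled totals. CPM is not divided by transcript length, so levels were not compared between genes, except where marker sums are set side by side. Correlations used log2 CPM with a prior count of 2, and 100000 permutations within treatments. Counts of FoEV vs. Co were simulated with 200 of 10832 genes changed by 1 (log2). Of these genes 83% were recovered by the quasi-likelihood test, with 2.92% false calls, and 89.5% by the likelihood ratio test, with 23.2% false calls.

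The alternatives were the size factors and the Wald test of DESeq2 1.42.0, no filter, the filter stated in the methods (11612 genes), the methods' likelihood ratio test, blocks by the number in the titles or in the library names, only the treatments compared, no ribosomal RNA genes, thinning to 2117202 counts per library, and each library left out in turn. From each list up to 5 genes with an unadjusted p under 0.05 in any comparison are named by lowest p, and any others were chosen after their values were seen. Symbols of 10709 genes were matched through RefSeq (ARS-UCD2.0). The genes, lists and tests were chosen with earlier results of these data known, so no list is independent evidence. 1 gene that the rule would name is not reported here.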

Additional observations from a re-analysis of the deposited data

Results flagged for a closer look

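In each of the 3 treatments and for each of the 10 genes, the highest and the lowest library were compared with the nearest other library, which made 30 groups of 5, and chance alone would mark about 1.5 of them (1 in 20). CCN1 in FeEV replicate 1 was marked at 54.5 CPM, since the next library was at 36.3 CPM and this gap made up 0.732 of the range of the treatment. CCN1 in FoEV replicate 1 was marked at 70.4 CPM, with the next at 40.6 CPM and a gap of 0.803 of the range. Both libraries were also the highest of their treatment for THBS1 and CCN2.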

How the results depend on the processing

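The negative log2 fold changes of THBS1, CCN1, CCN2 and AMOTL2 against Co kept their sign under all 10 settings and without any 1 library, and those of YAP1 kept theirs in all 3 comparisons. With the likelihood ratio test THBS1 in FoEV vs. Co was at -1.04 (adjusted p = 0.0196) and 2 of the 10 genes, THBS1 and CCN1 (adjusted p = 0.0335), passed the adjusted threshold, where that test called 311 genes in all, the quasi-likelihood test 1 and the Wald test of DESeq2 138. Without the filter on low counts 1 gene, CCN1, passed in FeEV vs. Co (adjusted p = 0.0257, against up to 1.0 under the other settings). That fit called 173, 13 and 22 genes in FoEV vs. Co, FeEV vs. Co and FoEV vs. FeEV. Leaving out 1 library, THBS1 ranged from -1.18 to -0.76 in FoEV vs. Co, from -1.16 to -0.72 in FeEV vs. Co (unadjusted p = 0.0504 without Co replicate 3) and from -0.29 to 0.25 in FoEV vs. FeEV. The counts of the 10 genes at an unadjusted p under 0.05 then ranged over 2 to 3, 1 to 3 and 0 to 1. Of all genes, 11.5% to 18.1%, 2.9% to 5.63% and 5.87% to 11.4% had such a p in these fits. The counts of the 10 after adjustment were 0 throughout. With counts thinned to equal depth 1 of the 10 had such a p in FoEV vs. FeEV, against 8.53% of all genes. THBS1 there was at 0.09.

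The labels do not say that the numbers in the titles mark a shared batch, and same-numbered libraries deviated together at r over 0.1 in 1, 3 and 3 of 5 pairs in FoEV vs. Co, FeEV vs. Co and FoEV vs. FeEV (mean r 0.03, 0.14 and 0.19, against -0.01, -0.03 and -0.05 for other numbers), so that a pairing by title number was neither shown nor excluded and was not used. The numbers in the library names, which differ from those in the titles, were not compared in this way. The ribosomal RNA share was 18.4%, 18.1% and 19.0% in the libraries numbered 4. It was 28.0% and 28.2% in those numbered 6, 15.5% and 16.3% in those numbered 2 and 22.8% and 22.5% in those numbered 7. It was 23.2%, 20.2% and 20.7% in those numbered 5, but 26.0% and 15.9% in those numbered 3. Whether the library numbers mark a shared batch was not tested. With the replicate number as a block, the CCN1 value in FeEV vs. Co was -0.75 (unadjusted p = 1.52e-05, adjusted p = 0.165), calls over all genes in FoEV vs. Co numbered 57 and THBS1 was at 0.0041 in FoEV vs. FeEV. With the library number as a block they numbered 12. Of the 10 genes, 1 then had an unadjusted p under 0.05 in FoEV vs. Co, against 14.6% of all genes. THBS1 in FoEV vs. FeEV was then at 0.03. In that fit the edgeR unadjusted p of FoEV vs. Co was 0.0662 for CCN1 (adjusted p = 0.369) and 0.0532 for AMOTL2 (adjusted p = 0.345).

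Signs near 0 were not stable. In FoEV vs. FeEV, CCN2 was at -0.02 when thinned, and AMOT at -0.03 and TEAD4 at -0.01 with the block by library number. Over the single libraries left out, the ranges in FoEV vs. FeEV were -0.06 to 0.37 for CCN1, -0.14 to 0.59 for CCN2, -0.02 to 0.13 for AMOT, -0.02 to 0.11 for TEAD4 and -0.13 to 0.05 for LATS2. In FeEV vs. Co they were -0.04 to 0.16 for AMOT, -0.01 to 0.18 for WWTR1, -0.09 to 0.04 for TEAD1 and -0.02 to 0.17 for TEAD4, and in FoEV vs. Co -0.13 to 0.05 for WWTR1. The cause of these differences was not tested.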
